A study of Mus musculus with 60 samples.

Results

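WT tail tip fibroblasts (FBs) carrying the inducible reprogramming cassette were compared at day 0 and day 2 of induction, both in the presence of VC. The comparison holds 6 of the 60 samples of the series, 3 per day, chosen by their labels alone. Day 0 plus VC cells received ascorbic acid (vitamin C, 50 µg/ml) and the GSK3 inhibitor CHIR (3 µM) without doxycycline, and day 2 plus VC cells received both with doxycycline (2 µg/ml) for 2 days. The WT line is labelled 4FJ_(+/-)_OCT4-GFP and came from a female mouse aged 22 weeks. The 4F cassette places Pou5f1, Klf4, Sox2 and Myc behind a doxycycline-responsive promoter in the Col1a1 locus. Counts per gene therefore pool transcripts of the cassette with those of the endogenous genes. How long VC was given before day 0 is not stated in the labels. The same WT line at day 0 and day 2 without VC, and D/KO cells (Ercc1 Δ/−, 4Fj+/− rtTA+/−, male, 8 weeks) at the same days plus VC, served for comparison. Each group holds 3 samples. WT and D/KO differ in genotype, sex, age and line at once, which cannot be told apart. The labels do not say whether samples of a group came from separate cultures, so every test measures the spread between these samples, which may be technical.

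Pou5f1, Sox2, Klf4 and Myc are transcription factors that together can return a somatic cell to pluripotency. In the first days of this process fibroblasts are known to lose mesenchymal features, to gain epithelial ones and to alter their proliferation. Ascorbic acid is a cofactor of the collagen prolyl and lysyl hydroxylases and of the TET and Jumonji demethylases. CHIR blocks GSK3, which stabilises β-catenin and activates Wnt target genes.

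The 6 libraries held 17324187 to 18484951 counts and 17627 to 18596 genes with a count. Replicates differed by 11.3 to 19.9 times the counting noise in 6 pairs, so counting error was the smaller part of the spread. Levels are given as CPM, counts scaled to library size with TMM factors. Those factors were 0.857 to 0.898 at day 0 plus VC and 0.938 to 0.984 at day 2 plus VC, and mitochondrial genes took 0.919 to 1.58% of the counts. Fibroblast markers were abundant, with summed levels of 155628 to 171384 CPM at day 0 plus VC and 81411 to 92233 CPM at day 2 plus VC. Every skeletal muscle marker was under the expression filter. Macrophage markers were detected in all WT groups, with sums of 81.6 to 134 CPM at day 0 plus VC and 75.4 to 80.0 CPM at day 2 plus VC.

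In WT cells plus VC, 2191 of 15832 genes tested were higher at day 2 than at day 0 (13.8%) and 2166 were lower (13.7%), at an adjusted p under 0.05. Adjusted p-values come from the quasi-likelihood test of edgeR, with the Benjamini-Hochberg procedure applied over these genes. A fold change is a fitted log2 value, day 2 minus day 0, with its SE after ±. The median over all tested genes was -0.0076. Without VC, 991 genes rose (6.26%) and 681 fell (4.30%) over the same 2 days in WT cells. In D/KO cells plus VC, 3765 rose (23.8%) and 3742 fell (23.6%). Of the genes that rose in WT plus VC, 753 also rose without VC (34.4% of the former and 76.0% of the latter), and 506 fell in both (23.4% and 74.3%). Between WT and D/KO plus VC, 1691 rises (77.2% and 44.9%) and 1619 falls (74.7% and 43.3%) were shared. These pairs of comparisons have no library in common.

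**Figure D1:**
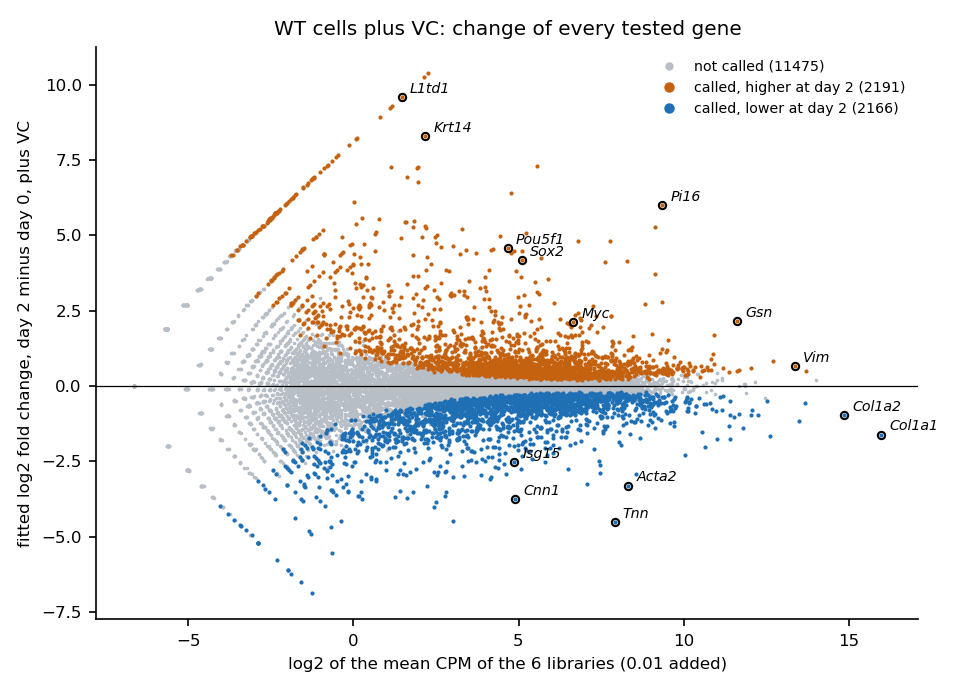
Each point is one of the 15832 tested genes in WT cells plus VC, with the log2 mean CPM of the 6 libraries (0.01 added) on the x axis and the fitted log2 fold change, day 2 minus day 0, on the y axis; 2191 genes were called higher (orange) and 2166 lower (blue), and 14 genes described in the text are circled. The straight rays at the left are genes at or near 0 counts on one day, whose fitted values depend on the prior count.

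The reprogramming factor genes were measured first. Pou5f1, the POU-domain factor of the pluripotency core, stood at 2.21, 2.15 and 1.79 CPM at day 0 plus VC and 40.0, 51.9 and 55.0 CPM at day 2 plus VC (log2 fold change 4.57 ± 0.34, adjusted p = 3.41e-13). Its partner Sox2 stood at 3.79, 3.44 and 3.45 CPM and then 56.5, 71.5 and 67.3 CPM (log2 fold change 4.19 ± 0.27, adjusted p = 8.62e-15). Both genes were far above their day 0 range in every day 2 library. Myc, which drives growth and ribosome production, rose from 37.1, 41.0 and 34.1 to 162, 172 and 159 CPM (log2 fold change 2.13 ± 0.11, adjusted p = 3.57e-17). Klf4 rose less, from 94.5, 90.1 and 86.2 to 149, 175 and 175 CPM (log2 fold change 0.88 ± 0.18, adjusted p = 0.000266). Without VC, Klf4 averaged 193 CPM at day 0 and 194 CPM at day 2. Its change differed between the conditions (difference 0.88 ± 0.26, adjusted p = 0.0348), and its day 0 level plus VC was the low value among the WT groups. The adjusted p of this difference was 0.0547 to 0.0874 without any 1 of the 12 WT libraries of these groups other than replicate 1 of WT day 2 and replicate 1 of WT day 2 plus VC. The D/KO cells plus VC reached higher means at day 2, with 98.6 CPM for Pou5f1, 136 CPM for Sox2, 329 CPM for Myc and 285 CPM for Klf4. The difference of the changes between WT and D/KO passed the test for Klf4 (-1.15 ± 0.26, adjusted p = 0.00183) and Myc (-1.04 ± 0.16, adjusted p = 8.43e-06), and not for Pou5f1 (adjusted p = 0.487) or Sox2 (adjusted p = 0.0821).

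**Figure D2:**
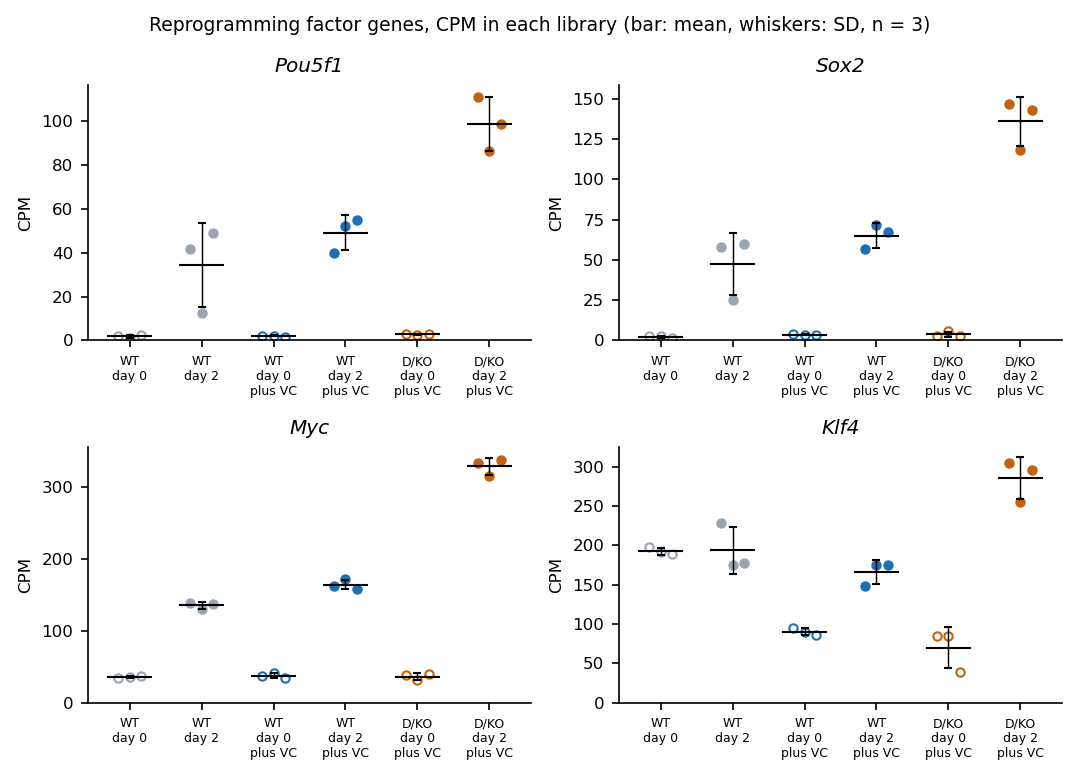
CPM of Pou5f1, Sox2, Myc and Klf4 in each library of 6 groups (open circles day 0, filled circles day 2; grey WT without VC, blue WT plus VC, orange D/KO plus VC; bar, mean; whiskers, SD; n = 3). In the blue WT plus VC groups all 4 genes are higher at day 2, and Klf4 without VC stays near 193 CPM.

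The largest rises by fold were in genes with no count in any of the 3 day 0 libraries plus VC. Slurp1, a secreted Ly6-family protein of keratinocytes, had 0 counts at day 0 and 10.5, 8.25 and 10.0 CPM at day 2, which is at least 150.0-fold higher when 3 counts over the group are taken as the floor. Efhd1, a calcium-binding mitochondrial protein, reached 9.75, 6.27 and 10.4 CPM (at least 137-fold), and L1td1, an RNA-binding protein of pluripotent cells, reached 4.84, 4.56 and 7.12 CPM (at least 86.1-fold). The same pattern held for Nccrp1 (at least 69.8-fold), myocilin Myoc (67.3), the epidermal secreted protein gene Dmkn (54.6), the von Willebrand factor protease gene Adamts13 (34.0), the adhesion molecule gene Ceacam1 (33.3), the epidermal transcription factor gene Grhl3 (28.4), the axonemal gene Spag17 (19.8) and Mall (18.2). Krt14, the basal keratinocyte keratin, had 1 count at day 0 and 9.32, 7.31 and 10.2 CPM at day 2, a ratio of 419 with a 95% counting interval of 74.9 to 16605. None of these 12 exceeded a mean of 9.59 CPM at day 2.

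The largest falls were led among well-measured genes by Tnn, which encodes the matrix glycoprotein tenascin-N. It stood at 406, 466 and 505 CPM at day 0 and 22.6, 16.2 and 21.3 CPM at day 2 (log2 fold change -4.52 ± 0.17, adjusted p = 1.43e-21), so every day 2 library was below every day 0 library by a wide margin. The transmembrane collagen gene Col25a1 fell from 15.5 to 0.680 CPM (log2 fold change -4.49), and integrin α8, Itga8, from 10.3 to 0.634 CPM (-4.01). The corneal proteoglycan gene Kera fell from 10.5 to 0.726 CPM (-3.84) and the smooth muscle calponin gene Cnn1 from 55.5 to 4.17 CPM (-3.74). The remaining large falls were in low genes. Myh13 fell from 2.22 to 0.163 CPM and Stac from 4.40 to 0.341 CPM. Alkal1, a ligand of the receptor ALK, had 58 counts at day 0 and 1 at day 2 (ratio 62.6, 95% counting interval 10.8 to 2516). Ccdc194 had 56 and 2 counts (30.2, 7.99 to 256), the corticosteroid-binding globulin gene Serpina6 had 69 and 3 (24.8, 8.15 to 123), and Snord72 had 49 and 3 (17.6, 5.69 to 88.5). Snord72 lies inside Rpl37 on the same strand, and the adjusted p was 0.0578 without day 0 replicate 2.

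In absolute level, the gains were led by Vim, the mesenchymal intermediate filament, from 8194 to 12894 CPM (log2 fold change 0.65 ± 0.13, adjusted p = 0.000253). The translation elongation factor genes Eef1a1 and Eef2 rose from 10969 to 15652 CPM (log2 fold change 0.51 ± 0.13, adjusted p = 0.00346) and from 4792 to 8459.5 CPM (log2 fold change 0.82 ± 0.16, adjusted p = 0.000109). The actin-severing protein gene Gsn rose from 1137 to 5106 CPM (log2 fold change 2.17 ± 0.12, adjusted p = 2.48e-16), Emp1 from 912 to 2984 CPM (log2 fold change 1.71 ± 0.12, adjusted p = 5.29e-14), and the endocytic receptor gene Lrp1 from 3315 to 5022 CPM (log2 fold change 0.60 ± 0.15, adjusted p = 0.00177). The losses in absolute level were all extracellular matrix genes, namely Col1a1, Col1a2, Sparc, Col12a1, Thbs1 and Lox, and are given with the matrix lists. Eef1a1 has processed pseudogenes that can share its reads, and how the counting treated reads with several hits is not given in the sources used here.

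Pluripotency genes were mostly silent. Of 27 listed, 10 passed the expression filter, 3 rose and 3 fell (30% up and 30% down, against 13.8% and 13.7% of all genes). Beside L1td1, the tetraspanin gene Cd9 rose from 235, 202 and 199 to 383, 346 and 289 CPM (log2 fold change 0.68 ± 0.12, adjusted p = 3.63e-05) and the glucose transporter gene Slc2a3 from 9.48, 9.46 and 8.76 to 19.1, 20.2 and 20.9 CPM (log2 fold change 1.12 ± 0.17, adjusted p = 2.83e-06). Alkaline phosphatase, Alpl, fell from 12.1, 13.1 and 12.5 to 1.53, 0.660 and 0.791 CPM (log2 fold change -3.66 ± 0.40, adjusted p = 4.82e-09). Without VC it averaged 1.82 CPM at day 0 and 0.428 CPM at day 2. Klf5 fell from 16.9 to 8.30 CPM (log2 fold change -1.02 ± 0.24, adjusted p = 0.00108). Dnmt3l fell from 3.91 to 1.72 CPM (log2 fold change -1.18 ± 0.42, adjusted p = 0.0327), but the adjusted p was 0.0516 to 0.141 without day 0 replicate 1, day 0 replicate 2, day 2 replicate 1, day 2 replicate 2 or day 2 replicate 3.

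Some epithelial genes rose, several of them from levels near 0. Of 30 genes of epithelial junctions and the mesenchymal to epithelial transition (MET), 17 were tested, 5 rose and 2 fell. That is 29.4% up and 11.8% down, against 13.8% and 13.7% of all genes. The expression filter pools the groups and also admits a gene through a group where it is high. The counts of called members in this list and in the lists of pluripotency genes, epithelial factors, keratins and cornified envelope genes are therefore a description and carry no weight of their own. Plakoglobin, Jup, rose from 75.0, 67.8 and 75.6 to 176, 151 and 170.2 CPM (log2 fold change 1.19 ± 0.13, adjusted p = 4.85e-09) and desmoplakin, Dsp, from 35.4, 39.4 and 40.1 to 63.6, 73.9 and 71.3 CPM (log2 fold change 0.86 ± 0.17, adjusted p = 0.000188), both desmosome components whose libraries did not overlap between days. Claudin 1, Cldn1, rose from 0.606 to 4.81 CPM (log2 fold change 2.96 ± 0.33, adjusted p = 5.83e-09), Perp from 0.0842 to 1.12 CPM (log2 fold change 3.62 ± 0.73, adjusted p = 0.000214), and plakophilin 1, Pkp1, from 1 count to 4.39 CPM (ratio 207, 95% counting interval 36.9 to 8229). Cldn1 was higher without VC, with means of 10.3 and 15.3 CPM. P-cadherin, Cdh3, moved the other way, from 33.0, 34.5 and 41.0 to 5.89, 5.88 and 4.62 CPM (log2 fold change -2.72 ± 0.22, adjusted p = 2.37e-12). Spint2 was also lower at day 2 (1.79 against 0.817 CPM), but the adjusted p was 0.0610 to 0.191 without day 0 replicate 1, day 0 replicate 2, day 2 replicate 1 or day 2 replicate 2, and its libraries overlapped between days. The E-cadherin gene Cdh1 was at 0 counts at day 0 and 0.0407 CPM at day 2 and did not pass the test (adjusted p = 0.247).

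Of 16 epithelial transcription and splicing factor genes, 10 were tested, 3 rose and 3 fell. These are 30% up and 30% down, against 13.8% and 13.7% of all genes. The rises were Grhl3, Klf4 and Trp63, the master factor of stratified epithelia, from 0.695, 1.11 and 1.39 to 2.33, 4.23 and 3.10 CPM (log2 fold change 1.597 ± 0.40, adjusted p = 0.00248). The falls were Klf5, Tfap2a and Gata3. Tfap2a went from 1.29 to 0.591 CPM, although the adjusted p was 0.0509 to 0.193 without day 0 replicate 1, day 2 replicate 1, day 2 replicate 2 or day 2 replicate 3. Gata3 went from 2.98 to 1.63 CPM, although the adjusted p was 0.0639 to 0.250 without day 0 replicate 1, day 0 replicate 2, day 0 replicate 3, day 2 replicate 1 or day 2 replicate 2.

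Keratin genes were at or near 0 counts at day 0 plus VC, apart from Krt10, Krt19 and Krt80, and none fell. Of 19 listed, 15 passed the expression filter and 7 of those were called higher (46.7%, against 13.8% of all genes). Krt13, for example, averaged 8.02 CPM in D/KO cells at day 2 plus VC. Beside Krt14, Krt16 had 0 counts at day 0 and 1.14 CPM at day 2 (at least 17.6-fold), and Krt19 rose from 1.71, 1.97 and 1.93 to 4.29, 4.29 and 4.38 CPM (log2 fold change 1.21 ± 0.27, adjusted p = 0.000574). Krt19 was higher without VC, with means of 9.20 and 22.9 CPM. The other members that rose were Krt8, Krt13, Krt20 and Krt80, all under 2 CPM at day 2. Krt8 and Krt13, chosen after their values were seen, had 0 counts at day 0 and 0.399 and 0.179 CPM at day 2. For Krt13 the adjusted p was 0.0771 to 0.256 without day 0 replicate 1, day 0 replicate 2, day 0 replicate 3 or day 2 replicate 3. Krt5, the partner of Krt14, and the suprabasal Krt1 stayed at 0.0814 and 0.130 CPM at day 2 and did not pass the test. Cornified envelope genes, of which 11 of 26 were tested, gave 4 rises and 1 fall. These are 36.4% up and 9.09% down, against 13.8% and 13.7% of all genes. The tested members summed to means of 39.5 CPM at day 0 plus VC and 99.96 CPM at day 2 plus VC. Without VC the sums were 115 and 105 CPM, which include 71.9 and 27.8 CPM of Cdsn. Periplakin, Ppl, rose from 10.99, 11.2 and 11.5 to 28.3, 34.4 and 40.6 CPM (log2 fold change 1.62 ± 0.22, adjusted p = 2.30e-07), suprabasin, Sbsn, from 16.6, 13.1 and 13.3 to 46.3, 48.9 and 47.3 CPM (log2 fold change 1.73 ± 0.17, adjusted p = 3.38e-10), and the transglutaminase gene Tgm1 from 1.16 to 7.25 CPM (log2 fold change 2.63 ± 0.26, adjusted p = 4.06e-10). Sciellin, Scel, rose from 0.126 to 0.905 CPM and corneodesmosin, Cdsn, fell from 6.47 to 2.85 CPM. D/KO cells plus VC reached 111 CPM of Krt14 at day 2.

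The factors that hold the mesenchymal state did not move as a group. Of 12 EMT transcription factor and mesenchymal cadherin genes, 4 rose and 3 fell (33.3% up and 25% down, against 13.8% and 13.7% of all genes, median 0.10). N-cadherin, Cdh2, fell from 89.7, 109 and 114 to 58.7, 57.6 and 66.4 CPM (log2 fold change -0.78 ± 0.13, adjusted p = 1.35e-05), Cdh11 from 958 to 749 CPM (log2 fold change -0.36 ± 0.10, adjusted p = 0.00631) and Twist2 from 23.0 to 13.0 CPM (log2 fold change -0.82 ± 0.20, adjusted p = 0.00157). Prrx1 rose from 359.9 to 482 CPM (log2 fold change 0.42 ± 0.10, adjusted p = 0.00143), Tcf4 from 275 to 408 CPM (log2 fold change 0.57 ± 0.10, adjusted p = 4.08e-05) and Snai2 from 40.4 to 58.9 CPM (log2 fold change 0.54 ± 0.11, adjusted p = 0.000316). Without VC, Snai2 averaged 87.5 CPM at day 0 and 59.8 CPM at day 2. Its change differed between the conditions (difference 1.09, adjusted p = 1.53e-05), and its day 0 level plus VC was the low value among these WT groups. Foxc2 went from 6.41 to 9.97 CPM, with overlapping libraries, and the adjusted p was 0.203 to 0.216 without day 0 replicate 2 or day 2 replicate 1.

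Fibroblast identity genes rose more often than they fell. Of 24 tested, 14 rose (58.3%) and 7 fell (29.2%), against 13.8% and 13.7% of all genes, with a median of 0.63. Pi16, a marker of progenitor-like fibroblasts of the adventitia, stood at 23.3, 18.8 and 17.7 CPM at day 0 plus VC and 1295, 1365 and 1177 CPM at day 2 plus VC (log2 fold change 6.003 ± 0.26, adjusted p = 8.44e-20). Cd34, which marks the same cells, went from 32.5, 35.5 and 31.6 to 594, 583 and 590.0 CPM (log2 fold change 4.15 ± 0.14, adjusted p = 7.11e-23). Both rose without VC as well, from higher day 0 levels (Pi16 142 to 935 CPM and Cd34 124 to 441 CPM). The differences of the changes were 3.29 ± 0.30, adjusted p = 1.19e-09 for Pi16 and 2.32 ± 0.17, adjusted p = 6.24e-12 for Cd34. Dermatopontin, Dpt, fell from 973, 785 and 685 to 299, 348 and 276 CPM (log2 fold change -1.40 ± 0.22, adjusted p = 5.52e-06), lumican, Lum, from 946 to 581 CPM (log2 fold change -0.70 ± 0.13, adjusted p = 5.70e-05) and the transcription factor gene Osr1 from 65.4 to 34.3 CPM (log2 fold change -0.93 ± 0.15, adjusted p = 4.76e-06). Among 9 fibroblast markers, Vim, Dcn and Thy1 rose and Col1a1, Col1a2, Lum, Pdgfra and Pdgfrb fell. Thy1 rose from 567 to 1112 CPM (log2 fold change 0.97 ± 0.12, adjusted p = 8.02e-08), and the PDGF receptor genes Pdgfra (-0.64) and Pdgfrb (-0.37) fell.

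Collagen mRNA fell. Of 22 collagen chain genes, 14 fell (63.6%, against 13.7% of all genes) and 1 rose, with a median of -0.85, or 0.30 measured from day 0 without VC. Col1a1, the α1 chain of type I collagen, stood at 97341, 89864 and 102498 CPM at day 0 plus VC and 32083, 27959 and 35156 CPM at day 2 plus VC (log2 fold change -1.61 ± 0.16, adjusted p = 5.48e-10). It took 8.06 to 8.78% of all counts at day 0 plus VC and 2.75 to 3.34% at day 2 plus VC. Without VC it was lower at both days, at 19798 ± 485 CPM (SD, n = 3) at day 0 and 15337 ± 4414 CPM at day 2. The day 2 level plus VC was thus below the day 0 level plus VC and above both levels without VC. Its partner chain Col1a2 fell from 38392, 38389 and 40455 to 20777, 18529 and 21346 CPM (log2 fold change -0.95 ± 0.14, adjusted p = 8.71e-07), against means of 12161 and 11813 CPM without VC. Col12a1 fell from 9414 to 2992 CPM (log2 fold change -1.65 ± 0.20, adjusted p = 5.02e-08), the anchoring fibril gene Col7a1 from 119.9 to 37.3 CPM (log2 fold change -1.68 ± 0.18, adjusted p = 1.82e-09) and Col6a2 from 4259.6 to 2264 CPM (log2 fold change -0.91 ± 0.10, adjusted p = 4.63e-09). Col3a1, chosen after its values were seen, was at 15353 and 17555 CPM and did not pass the test (adjusted p = 0.460). The exception among the chains was Col15a1 of basement membranes, which rose from 24.6, 30.5 and 24.6 to 126, 124 and 127 CPM (log2 fold change 2.24 ± 0.15, adjusted p = 2.47e-14). The change of 5 chains was more negative with VC than without (22.7%, against 2.97% of all genes). That of Col15a1 was more positive (4.55%, against 2.55% of all genes).

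The genes for collagen processing enzymes fell as well, 14 of 20 (70.0%, against 13.7% of all genes) with no rise. Their median was -0.55, or -0.064 measured from day 0 without VC. Lysyl oxidase, Lox, which crosslinks collagen and elastin, fell from 4437, 5222 and 5600.0 to 2039, 1804 and 1974 CPM (log2 fold change -1.39 ± 0.12, adjusted p = 3.00e-11). The prolyl 4-hydroxylase subunit P4ha3 fell from 116, 113 and 116 to 44.5, 42.8 and 40.3 CPM (log2 fold change -1.44 ± 0.13, adjusted p = 3.40e-11) and the collagen chaperone Serpinh1 from 3626, 3212 and 3861 to 1862, 1812 and 1882 CPM (log2 fold change -0.95 ± 0.11, adjusted p = 7.14e-09). In 10 of these 20 genes the change was more negative with VC than without (50.0%, against 2.97% of all genes).

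Of 26 matrix glycoprotein and elastic fibre genes, 15 fell (57.7%) and 4 rose (15.4%), against 13.7% and 13.8% of all genes, with a median of -0.54, or 0.14 measured from day 0 without VC. Sparc, a collagen-binding protein, fell from 16999, 14398 and 16072 to 7457, 6719 and 7175 CPM (log2 fold change -1.15 ± 0.10, adjusted p = 9.05e-12). Thbs2 fell from 3754 to 1492 CPM (log2 fold change -1.33 ± 0.10, adjusted p = 5.26e-13), Thbs1 from 15457 to 10403 CPM (log2 fold change -0.57 ± 0.14, adjusted p = 0.00199) and the latent TGFβ binding protein gene Ltbp2 from 3157 to 944 CPM (log2 fold change -1.74 ± 0.14, adjusted p = 2.97e-12). The 4 that rose were elastin, Eln, from 50.7, 49.1 and 44.0 to 143, 158 and 148 CPM (log2 fold change 1.64 ± 0.31, adjusted p = 7.27e-05), Tgfbi (0.97), decorin, Dcn (0.91), and fibrillin 1, Fbn1 (0.50). For Fbn1 the adjusted p was 0.0501 without day 0 replicate 1. Matrix proteases and their inhibitors gave 9 falls of 19 and no rise (47.4%, against 13.7% of all genes, median -0.55). Stromelysin, Mmp3, fell from 108, 94.4 and 83.8 to 19.99, 14.6 and 15.8 CPM (log2 fold change -2.51 ± 0.25, adjusted p = 6.04e-10), tissue plasminogen activator, Plat, from 504, 518 and 478 to 173, 177 and 151 CPM (log2 fold change -1.58 ± 0.13, adjusted p = 9.70e-12) and Mmp19 from 137 to 70.5 CPM (log2 fold change -0.96 ± 0.11, adjusted p = 6.51e-09).

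**Figure D3:**
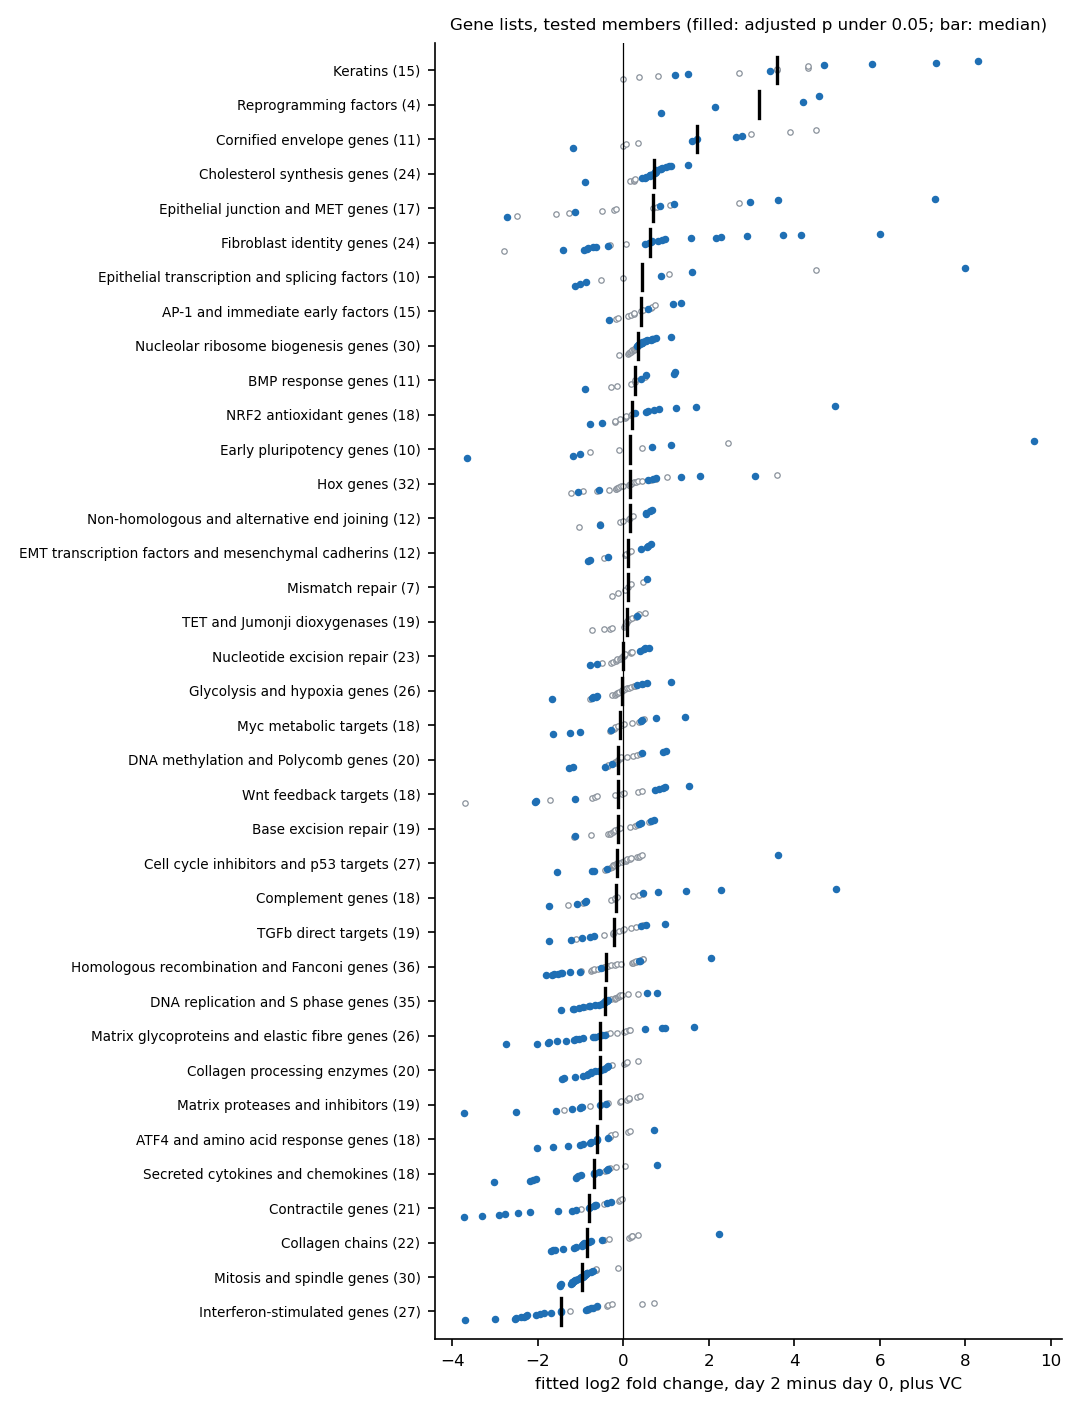
Fitted log2 fold changes, day 2 minus day 0 plus VC, of the tested members of 37 gene lists (number tested in brackets; filled points, adjusted p under 0.05; black bar, median), sorted by median. Medians run from -1.45 in interferon-stimulated genes to 3.59 in keratins, where many members were at 0 counts at day 0 and the median is 1.21 with those genes held at their bound, below the 3.16 of the reprogramming factors.

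Contractile genes of the myofibroblast fell together. Of 21 tested, 16 fell (76.2%, against 13.7% of all genes) and none rose, with a median of -0.81. Smooth muscle α-actin, Acta2, stood at 563, 493 and 688 CPM at day 0 plus VC and 70.3, 48.2 and 58.6 CPM at day 2 plus VC (log2 fold change -3.30 ± 0.18, adjusted p = 4.93e-17). The regulatory light chain gene Myl9 stood at 171, 136 and 164 and then 30.8, 20.1 and 18.6 CPM (log2 fold change -2.76 ± 0.17, adjusted p = 1.20e-15), and tropomyosin 1, Tpm1, at 507, 503 and 503 and then 231, 217 and 207 CPM (log2 fold change -1.21 ± 0.091, adjusted p = 4.81e-13). Acta2 and Myl9 also fell without VC, Acta2 from 485 to 107 CPM and Myl9 from 140.3 to 55.8 CPM. The fall of 4 members was larger with VC (19.0%, against 2.97% of all genes). Acta2 and Myl9 were among them (differences -1.12 ± 0.23, adjusted p = 0.00154 and -1.43 ± 0.22, adjusted p = 3.75e-05). Serum response factor binds the CArG box, and 4 of the 16 contractile genes with a RefSeq promoter window (250 bases before to 50 after the start, GRCm38.p6, both strands searched) hold one, 25% against 1.81% of all genes. Of these 4, Myl9 and Cnn2 fell, and Vcl (adjusted p = 0.0505) and Srf (adjusted p = 0.728) did not pass the test. The Myl9 window, at chr2:156775214-156775513 on the plus strand, is printed with its box in capitals, 161 bases before the start site.
Myl9: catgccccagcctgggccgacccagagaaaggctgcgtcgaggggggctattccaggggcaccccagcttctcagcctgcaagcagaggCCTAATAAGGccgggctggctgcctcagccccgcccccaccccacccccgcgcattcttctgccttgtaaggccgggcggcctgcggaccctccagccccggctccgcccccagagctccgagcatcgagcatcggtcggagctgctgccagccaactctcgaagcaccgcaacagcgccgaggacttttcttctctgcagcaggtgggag

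Of 19 direct TGFβ target genes, 5 fell and 3 rose (15.8% up and 26.3% down, against 13.8% and 13.7% of all genes, median -0.21). The activin subunit gene Inhba fell from 356, 484 and 457 to 219, 218 and 227 CPM (log2 fold change -0.97 ± 0.15, adjusted p = 6.52e-06) and the ligand gene Tgfb1 from 42.2 to 24.4 CPM (log2 fold change -0.79 ± 0.13, adjusted p = 6.77e-06). Tgfb1i1 fell from 169 to 105 CPM, and Ltbp2 also fell. Without day 2 replicate 1 the list gave 8 falls. Tgfbi rose, and called higher were Bhlhe40 (0.53) and Ldlrad4 (0.41). For Bhlhe40 the adjusted p was 0.0765 without day 2 replicate 1, and for Ldlrad4 the adjusted p was 0.0631 to 0.281 without day 0 replicate 1, day 0 replicate 2, day 2 replicate 1 or day 2 replicate 3.

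Of 11 BMP response genes, 4 rose and 1 fell (36.4% up and 9.09% down, against 13.8% and 13.7% of all genes, median 0.28). Id1, an inhibitor of differentiation factors and a direct BMP target, rose from 42.6, 32.7 and 30.1 to 123, 65.4 and 50.4 CPM (log2 fold change 1.18 ± 0.29, adjusted p = 0.00186), although the adjusted p was 0.0659 without day 2 replicate 1. The BMP antagonist gene Nog rose from 15.5, 14.5 and 11.9 to 37.3, 29.3 and 29.7 CPM (log2 fold change 1.20 ± 0.21, adjusted p = 2.46e-05) and the pseudoreceptor gene Bambi fell from 12.6, 9.46 and 10.2 to 6.38, 5.39 and 5.47 CPM (log2 fold change -0.90 ± 0.19, adjusted p = 0.000371). Smad6 (0.41) and Grem1 (0.53) were also called higher. For Smad6 the adjusted p was 0.0512 to 0.501 without day 0 replicate 1, day 0 replicate 3 or day 2 replicate 1, and for Grem1 the adjusted p was 0.0569 to 0.0973 without day 0 replicate 1, day 0 replicate 2, day 0 replicate 3, day 2 replicate 1, day 2 replicate 2 or day 2 replicate 3.

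Wnt feedback targets went both ways, 5 up and 3 down of 18 tested and 20 listed (27.8% up and 16.7% down, against 13.8% and 13.7% of all genes, median -0.12). Axin2, Nkd2 and Nkd1, which restrain Wnt signalling, were the falls. Axin2 stood at 25.02, 24.8 and 25.8 CPM at day 0 plus VC and 12.2, 12.4 and 9.67 CPM at day 2 plus VC (log2 fold change -1.14 ± 0.22, adjusted p = 0.000112), against means of 1.30 and 1.73 CPM without VC. Nkd2 stood at 97.7, 109 and 91.7 and then 24.4, 24.4 and 23.6 CPM (log2 fold change -2.04 ± 0.24, adjusted p = 2.64e-08), against 9.44 and 6.15 CPM without VC. Both were higher plus VC at each day, and in the cells plus VC both were lower at day 2. Nkd1 fell from 17.8 to 4.22 CPM (log2 fold change -2.07 ± 0.27, adjusted p = 1.14e-07). Cyclin D1, Ccnd1, rose from 320.0, 405 and 407 to 1022, 1012 and 1236 CPM (log2 fold change 1.53 ± 0.12, adjusted p = 9.45e-13), as did the receptor genes Fzd7 (0.83) and Lgr6 (0.98), Bmp4 (0.93) and Tcf7 (0.73). For Tcf7 the adjusted p was 0.0550 to 0.152 without day 0 replicate 1, day 0 replicate 2, day 2 replicate 1 or day 2 replicate 3.

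Mitosis genes fell from a raised day 0 level. Of 30 tested, 24 fell (80.0%, against 13.7% of all genes) and none rose, with a median of -0.97, or 0.77 measured from day 0 without VC. Their summed level was 385, 415 and 459.6 CPM in the day 0 libraries plus VC and 258, 230.3 and 228 CPM in the day 2 libraries plus VC. Without VC the sums averaged 156 CPM at day 0 and 164 CPM at day 2. Plk1, a kinase needed for spindle assembly, stood at 14.97, 15.2 and 15.4 CPM at day 0 plus VC and 5.82, 4.84 and 5.66 CPM at day 2 plus VC (log2 fold change -1.48 ± 0.18, adjusted p = 6.18e-08). Its means without VC were 2.42 and 2.07 CPM. The spindle midzone gene Prc1 fell from 15.6, 18.6 and 19.5 to 6.68, 5.77 and 6.75 CPM (log2 fold change -1.48 ± 0.18, adjusted p = 2.41e-08) and the ubiquitin-conjugating enzyme gene Ube2c from 12.8, 14.9 and 14.7 to 6.01, 5.17 and 4.32 CPM (log2 fold change -1.45 ± 0.19, adjusted p = 1.76e-07). The order of the WT means was the same for these 3 genes, with day 0 plus VC highest, day 2 plus VC next and both days without VC lowest. The proliferation marker Mki67, chosen after its values were seen, was at 14.97, 26.7 and 25.6 and then 13.0, 13.2 and 17.0 CPM and missed the threshold (adjusted p = 0.0733).

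Many mitosis promoters hold the cell cycle homology region, CHR (TTTGAA), which the DREAM and B-MYB complexes recognise. Searched on both strands, it occurs in 18 of the 26 mitosis genes with a window (69.2%) against 20.2% of all genes. The Plk1 window is chr7:122159185-122159484 and the Prc1 window chr7:80294201-80294500 (GRCm38.p6, RefSeq, both plus strand), and they are shown because these genes had the largest falls of the list. The CHR is in capitals, 31 bases after the start site in Plk1 and 5 bases before it in Prc1.
Plk1: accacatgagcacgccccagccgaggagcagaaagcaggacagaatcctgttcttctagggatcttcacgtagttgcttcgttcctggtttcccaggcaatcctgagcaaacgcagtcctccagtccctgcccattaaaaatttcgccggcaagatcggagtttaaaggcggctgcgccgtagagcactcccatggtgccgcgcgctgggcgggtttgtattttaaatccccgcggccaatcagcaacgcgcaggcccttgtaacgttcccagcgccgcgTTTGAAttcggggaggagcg
Prc1: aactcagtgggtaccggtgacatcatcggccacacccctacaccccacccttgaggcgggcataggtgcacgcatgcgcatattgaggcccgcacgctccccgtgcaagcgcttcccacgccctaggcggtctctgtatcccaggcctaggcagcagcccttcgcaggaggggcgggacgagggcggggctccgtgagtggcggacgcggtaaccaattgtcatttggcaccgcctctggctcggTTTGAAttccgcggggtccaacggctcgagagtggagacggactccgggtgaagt

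DNA replication and S phase genes fell in part, 16 of 35 (45.7%, against 13.7% of all genes) with 2 rises (5.71%, against 13.8%) and a median of -0.43, or 0.66 measured from day 0 without VC. The helicase subunit gene Mcm5 fell from 16.1, 21.2 and 18.4 to 9.20, 7.59 and 7.97 CPM (log2 fold change -1.17 ± 0.17, adjusted p = 1.84e-06), thymidine kinase, Tk1, from 13.1 to 6.74 CPM (log2 fold change -0.96 ± 0.19, adjusted p = 0.000189) and the ribonucleotide reductase gene Rrm1 from 139 to 97.7 CPM (log2 fold change -0.51 ± 0.091, adjusted p = 3.63e-05). Without day 2 replicate 2 the falls numbered 9. The rises were Rrm2 (0.55) and E2f2 (0.79). For Rrm2 the adjusted p was 0.0971 to 0.163 without day 0 replicate 1, day 0 replicate 2, day 2 replicate 1 or day 2 replicate 2, and for E2f2 the adjusted p was 0.0507 to 0.219 without day 0 replicate 1, day 0 replicate 2, day 0 replicate 3 or day 2 replicate 3. Of 27 cell cycle inhibitor and p53 target genes, 4 fell and 1 rose (3.70% up and 14.8% down, against 13.8% and 13.7% of all genes, median -0.16). The inhibitor gene Cdkn2c fell from 27.2, 20.3 and 22.8 to 16.6, 13.4 and 13.8 CPM (log2 fold change -0.68 ± 0.14, adjusted p = 0.000267). Cdkn1c (-1.55), Cdkn1b (-0.39) and Plk3 (-0.73) were also called lower, and Perp was the rise. For Cdkn1c the adjusted p was 0.0602 to 0.0713 without day 0 replicate 1 or day 2 replicate 1, for Cdkn1b the adjusted p was 0.0724 to 0.207 without day 0 replicate 2 or day 2 replicate 1, and for Plk3 the adjusted p was 0.0542 without day 0 replicate 1.

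DNA repair genes were grouped by pathway. Of 36 homologous recombination and Fanconi genes, 9 fell (25%) and 3 rose (8.33%), against 13.7% and 13.8% of all genes, with a median of -0.40, or 0.20 measured from day 0 without VC. The helicase gene Brip1 fell from 2.65, 3.56 and 5.64 to 0.797, 1.37 and 1.16 CPM (log2 fold change -1.82 ± 0.33, adjusted p = 4.99e-05) and the nuclease gene Exo1 from 2.84, 3.87 and 2.59 to 0.552, 1.10 and 1.34 CPM (log2 fold change -1.63 ± 0.34, adjusted p = 0.00026). Both genes were also lower without VC, at 0.722 and 0.606 CPM at day 0. Usp1, which removes ubiquitin from FANCD2 and PCNA, rose from 33.9, 35.2 and 38.2 to 149.5, 140.5 and 154 CPM (log2 fold change 2.05 ± 0.10, adjusted p = 3.11e-18). Mre11a (0.38) and Rad51d (0.36) were the other rises. For Mre11a the adjusted p was 0.0673 to 0.0924 without day 0 replicate 1 or day 2 replicate 3, and for Rad51d the adjusted p was 0.0852 to 0.139 without day 0 replicate 1, day 0 replicate 2, day 2 replicate 2 or day 2 replicate 3.

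Of 23 nucleotide excision repair genes, 4 rose (17.4%) and 2 fell (8.70%), against 13.8% and 13.7% of all genes (median -0.019). Ercc1, the gene disrupted in the D/KO line, was at 24.1, 18.4 and 24.7 CPM at day 0 plus VC and 17.4, 21.7 and 20.1 CPM at day 2 plus VC, with overlapping libraries (log2 fold change -0.18 ± 0.16, adjusted p = 0.448). D/KO cells plus VC gave means of 14.98 and 13.0 CPM. The damage sensor gene Xpc rose from 16.7, 14.5 and 16.7 to 21.3, 22.3 and 23.5 CPM (log2 fold change 0.49 ± 0.13, adjusted p = 0.00336) and the nuclease gene Ercc5 from 35.8, 44.4 and 35.1 to 48.6, 59.9 and 56.3 CPM (log2 fold change 0.52 ± 0.14, adjusted p = 0.00518). Xpa (0.61) and Ercc4 (0.38), the nuclease partner of Ercc1, were called higher, and Ercc8 (-0.78) and Rpa2 (-0.61) lower. For Xpa the adjusted p was 0.0575 to 0.101 without day 0 replicate 2, day 0 replicate 3, day 2 replicate 1 or day 2 replicate 2, for Ercc4 the adjusted p was 0.0868 to 0.0955 without day 0 replicate 3 or day 2 replicate 3, for Ercc8 the adjusted p was 0.0649 to 0.128 without day 0 replicate 1, day 2 replicate 1 or day 2 replicate 2, and for Rpa2 the adjusted p was 0.0616 to 0.0897 without day 0 replicate 1 or day 2 replicate 3.

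Base excision repair gave 4 rises and 1 fall of 19 (21.1% up and 5.26% down, against 13.8% and 13.7% of all genes, median -0.12). The endonuclease gene Apex1 rose from 6.44, 4.85 and 5.97 to 8.71, 9.79 and 10.1 CPM (log2 fold change 0.73 ± 0.20, adjusted p = 0.00571), while Apex2 fell from 11.4, 9.3997 and 11.4 to 5.76, 4.95 and 3.89 CPM (log2 fold change -1.14 ± 0.20, adjusted p = 3.01e-05). Parp1 (0.36) and Parp2 (0.41) were also called higher. For Parp1 the adjusted p was 0.0570 without day 2 replicate 3, and for Parp2 the adjusted p was 0.0627 to 0.186 without day 0 replicate 2, day 0 replicate 3, day 2 replicate 1, day 2 replicate 2 or day 2 replicate 3. End joining gave 4 rises and 1 fall of 12 (33.3% up and 8.33% down, against 13.8% and 13.7% of all genes, median 0.15). The DNA-PK catalytic subunit gene Prkdc rose from 14.5, 18.1 and 15.2 to 24.6, 22.0 and 30.04 CPM (log2 fold change 0.68 ± 0.17, adjusted p = 0.00242) and its Ku80 partner Xrcc5 from 23.5, 19.4 and 25.03 to 33.9, 31.0 and 32.4 CPM (log2 fold change 0.52 ± 0.10, adjusted p = 0.00018). The polymerase gene Poll rose (0.62), Polm was called higher (0.53) and Xrcc4 lower (-0.55). For Polm the adjusted p was 0.0524 to 0.0712 without day 0 replicate 1, day 0 replicate 3 or day 2 replicate 1, and for Xrcc4 the adjusted p was 0.0644 to 0.187 without day 0 replicate 1, day 0 replicate 3, day 2 replicate 1, day 2 replicate 2 or day 2 replicate 3. The 7 mismatch repair genes tested had a median of 0.10.

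Interferon-stimulated genes were high at day 0 plus VC, and the size of their fall rested on single libraries. Of 29 listed, 27 were tested, 19 fell (70.4%, against 13.7% of all genes) and none rose, with a median of -1.45, or 0.49 measured from day 0 without VC. Isg15, a ubiquitin-like modifier chosen after its values were seen, stood at 81.4, 19.0 and 48.0 CPM at day 0 plus VC and 5.64, 2.20 and 17.9 CPM at day 2 plus VC (log2 fold change -2.53 ± 0.62, adjusted p = 0.00193). The lowest day 0 library lay just above the highest day 2 library. Bst2, tetherin, fell from 141, 43.4 and 127 to 34.7, 19.7 and 26.6 CPM (log2 fold change -1.94 ± 0.36, adjusted p = 5.15e-05). The paralogs Ifit3 and Ifit3b, whose shared sequence leaves the split of their reads uncertain, stood at 188, 32.6 and 68.4 CPM and then 17.0, 8.58 and 33.8 CPM (log2 fold change -2.28 ± 0.47, adjusted p = 0.000283) and at 49.7, 7.68 and 17.0 CPM and then 1.96, 3.52 and 8.57 CPM (log2 fold change -2.40 ± 0.49, adjusted p = 0.000252), with overlap between the days. The chemokine gene Cxcl10 fell from 12.8, 2.64 and 1.73 to 0.920, 0.385 and 0 CPM (log2 fold change -3.70 ± 0.88, adjusted p = 0.00128), but the adjusted p was 0.0761 without day 0 replicate 1. Without day 0 replicate 1 the list gave 6 falls and a median of -0.87, and without day 2 replicate 2 it gave 10 falls and a median of -1.13. Without VC the sum of the 27 genes averaged 711 CPM at day 0 and 849 CPM at day 2, against 1072 to 2242 CPM in the day 0 libraries plus VC and 1011 to 1343 CPM in the day 2 libraries plus VC.

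The interferon-stimulated response element is a promoter motif of interferon target genes. Its core, searched as GAAANNGAA on both strands, occurs in 13 of the 18 members with a promoter window (72.2%) against 9.76% of all genes. The Isg15 window lies at chr4:156200769-156201068 and the Cxcl10 window at chr5:92348840-92349139 (GRCm38.p6, RefSeq, both minus strand, printed in the direction of the gene). Capitals mark the matches, which overlap in Isg15 and begin 78 bases before its start site, and 213 bases before that of Cxcl10.
Isg15: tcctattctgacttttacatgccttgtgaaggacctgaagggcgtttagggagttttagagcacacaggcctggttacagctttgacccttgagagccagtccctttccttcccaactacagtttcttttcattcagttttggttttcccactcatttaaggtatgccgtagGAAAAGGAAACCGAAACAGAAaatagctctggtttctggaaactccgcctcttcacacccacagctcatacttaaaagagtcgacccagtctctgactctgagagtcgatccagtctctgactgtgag
Cxcl10: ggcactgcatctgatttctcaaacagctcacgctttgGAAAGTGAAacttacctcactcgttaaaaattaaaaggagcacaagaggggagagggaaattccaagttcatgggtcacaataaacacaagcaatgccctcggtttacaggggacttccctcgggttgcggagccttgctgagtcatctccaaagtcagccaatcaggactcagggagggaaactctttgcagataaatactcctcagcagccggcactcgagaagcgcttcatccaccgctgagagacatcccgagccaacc

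Secreted cytokine and chemokine genes fell, 12 of 18 tested (66.7%, against 13.7% of all genes; 25 were listed) with 1 rise and a median of -0.69. The alarmin gene Il33 stood at 28.2, 35.0 and 32.3 CPM and then 2.82, 4.56 and 4.38 CPM (log2 fold change -3.02 ± 0.28, adjusted p = 1.08e-10), against 2.65 CPM without VC at day 0. Hepatocyte growth factor, Hgf, fell from 42.5, 62.0 and 49.3 to 11.96, 13.3 and 10.0 CPM (log2 fold change -2.12 ± 0.21, adjusted p = 2.22e-10) and the chemokine gene Cxcl15 from 10.2, 7.43 and 5.31 to 2.64, 1.37 and 1.58 CPM (log2 fold change -2.04 ± 0.33, adjusted p = 8.54e-06). Osteopontin, Spp1, was the rise (0.80), and the adjusted p was 0.0595 to 0.0620 without day 0 replicate 3 or day 2 replicate 2. Of 8 macrophage markers, Csf1r fell from 7.56 to 3.25 CPM (log2 fold change -1.21 ± 0.30, adjusted p = 0.00184), Adgre1 was called lower (-1.20) and Cd14 rose (1.32). For Adgre1 the adjusted p was 0.0551 to 0.0594 without day 0 replicate 3, day 2 replicate 2 or day 2 replicate 3. Lyz2 was at 74.0 and 50.9 CPM, and the part of macrophages in the fall of cytokine genes was not tested. In these bulk samples fewer cells of a type and less RNA per cell cannot be told apart.

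Cholesterol synthesis genes rose. Of 24 tested, 19 rose (79.2%, against 13.8% of all genes) and 1 fell, with a median of 0.72. The mevalonate decarboxylase gene Mvd stood at 18.4, 14.9 and 15.7 CPM at day 0 plus VC and 49.7, 41.9 and 49.0 CPM at day 2 plus VC (log2 fold change 1.52 ± 0.16, adjusted p = 1.45e-09). The isomerase gene Idi1 rose from 14.5, 12.7 and 14.2 to 36.1, 24.1 and 29.5 CPM (log2 fold change 1.11 ± 0.12, adjusted p = 3.39e-09). The median change was 0.56 without VC and 0.71 in D/KO cells plus VC. Between WT with and without VC, 1 member differed in each direction (4.17% each, against 2.55% and 2.97% of all genes). The sterol regulatory element core (TCACNCCAC, both strands) occurs in 1 of 16 members with a window (6.25%) against 1.44% of all genes. That member is Hmgcs1, the HMG-CoA synthase gene, at 64.9 and 121 CPM (log2 fold change 0.90 ± 0.12, adjusted p = 3.78e-07).

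Nucleolar genes of ribosome biogenesis rose by small amounts. Of 30 tested, 15 rose (50.0%, against 13.8% of all genes) and none fell, with a median of 0.33, against 1.09 in D/KO cells plus VC. Nucleophosmin, Npm1, stood at 399, 364 and 425 CPM and then 878, 773 and 911 CPM (log2 fold change 1.11 ± 0.11, adjusted p = 3.09e-10). Nob1 rose from 37.2, 27.6 and 27.9 to 49.0, 48.1 and 50.1 CPM (log2 fold change 0.67 ± 0.12, adjusted p = 5.08e-05) and Mybbp1a from 126, 128 and 123 to 184, 178 and 187 CPM (log2 fold change 0.54 ± 0.085, adjusted p = 4.67e-06). Metabolic genes known as Myc targets went both ways, 4 up and 4 down of 18 (22.2% up and 22.2% down, against 13.8% and 13.7% of all genes, median -0.089). The purine synthesis genes Paics (log2 fold change 1.44 ± 0.10, adjusted p = 3.21e-14) and Impdh2 (log2 fold change 0.75 ± 0.12, adjusted p = 5.48e-06) rose, as did Mthfd1 (0.41), and Ccnd2 was called higher (0.43). Mthfd2 fell from 33.4, 36.1 and 35.4 to 13.1, 9.46 and 11.1 CPM (log2 fold change -1.64 ± 0.15, adjusted p = 3.34e-11), with Odc1 (-1.25) and the transferrin receptor gene Tfrc (-1.02), and Eif4e was called lower (-0.28). For Ccnd2 the adjusted p was 0.0869 to 0.148 without day 0 replicate 1 or day 2 replicate 3, and for Eif4e the adjusted p was 0.0534 to 0.155 without day 0 replicate 1, day 0 replicate 3, day 2 replicate 2 or day 2 replicate 3.

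ATF4 and amino acid response genes fell, 11 of 18 (61.1%, against 13.7% of all genes) with 1 rise and a median of -0.62. The serine synthesis genes Phgdh and Psat1 fell from 111, 86.7 and 112 to 58.2, 51.3 and 51.8 CPM (log2 fold change -0.94 ± 0.12, adjusted p = 2.07e-07) and from 94.7, 82.7 and 121 to 54.2, 39.05 and 55.6 CPM (log2 fold change -1.004 ± 0.14, adjusted p = 8.41e-07). Phgdh did not fall without VC, where its means were 158 and 186 CPM, and its change differed between the conditions (-1.17 ± 0.17, adjusted p = 1.81e-05). Vldlr was the rise (0.71). NRF2 antioxidant genes gave 8 rises and 2 falls of 18 (44.4% up and 11.1% down, against 13.8% and 13.7% of all genes, median 0.19). The quinone reductase gene Nqo1 rose from 32.2, 23.9 and 26.4 to 67.4, 62.5 and 63.1 CPM (log2 fold change 1.23 ± 0.17, adjusted p = 7.81e-07), Gsta4 from 62.4, 43.1 and 43.5 to 172, 153 and 160.1 CPM (log2 fold change 1.70 ± 0.16, adjusted p = 7.12e-11) and transketolase, Tkt, from 190.1 to 339 CPM (log2 fold change 0.83 ± 0.13, adjusted p = 4.27e-06). G6pdx fell (-0.50) and the cystine transporter gene Slc7a11 was called lower (-0.78), with overlapping libraries, and the adjusted p was 0.0620 to 0.270 without day 0 replicate 3, day 2 replicate 2 or day 2 replicate 3. Glycolysis and hypoxia genes gave 4 rises and 5 falls of 26 (15.4% up and 19.2% down, against 13.8% and 13.7% of all genes, median -0.032). The prolyl hydroxylase gene Egln3 fell from 13.0, 12.8 and 19.4 to 3.74, 5.44 and 4.93 CPM (log2 fold change -1.67 ± 0.20, adjusted p = 2.68e-08), with Slc16a3 (-0.73), Adm (-0.71), Slc2a1 (-0.63) and Bnip3 (-0.62). Aldoc (1.11), Gpi1 (0.55), Ndrg1 (0.44) and Hk1 (0.31) rose. For Bnip3 the adjusted p was 0.0614 to 0.0948 without day 0 replicate 3 or day 2 replicate 3, and for Hk1 the adjusted p was 0.0983 to 0.112 without day 0 replicate 2 or day 2 replicate 3.

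**Figure D4:**
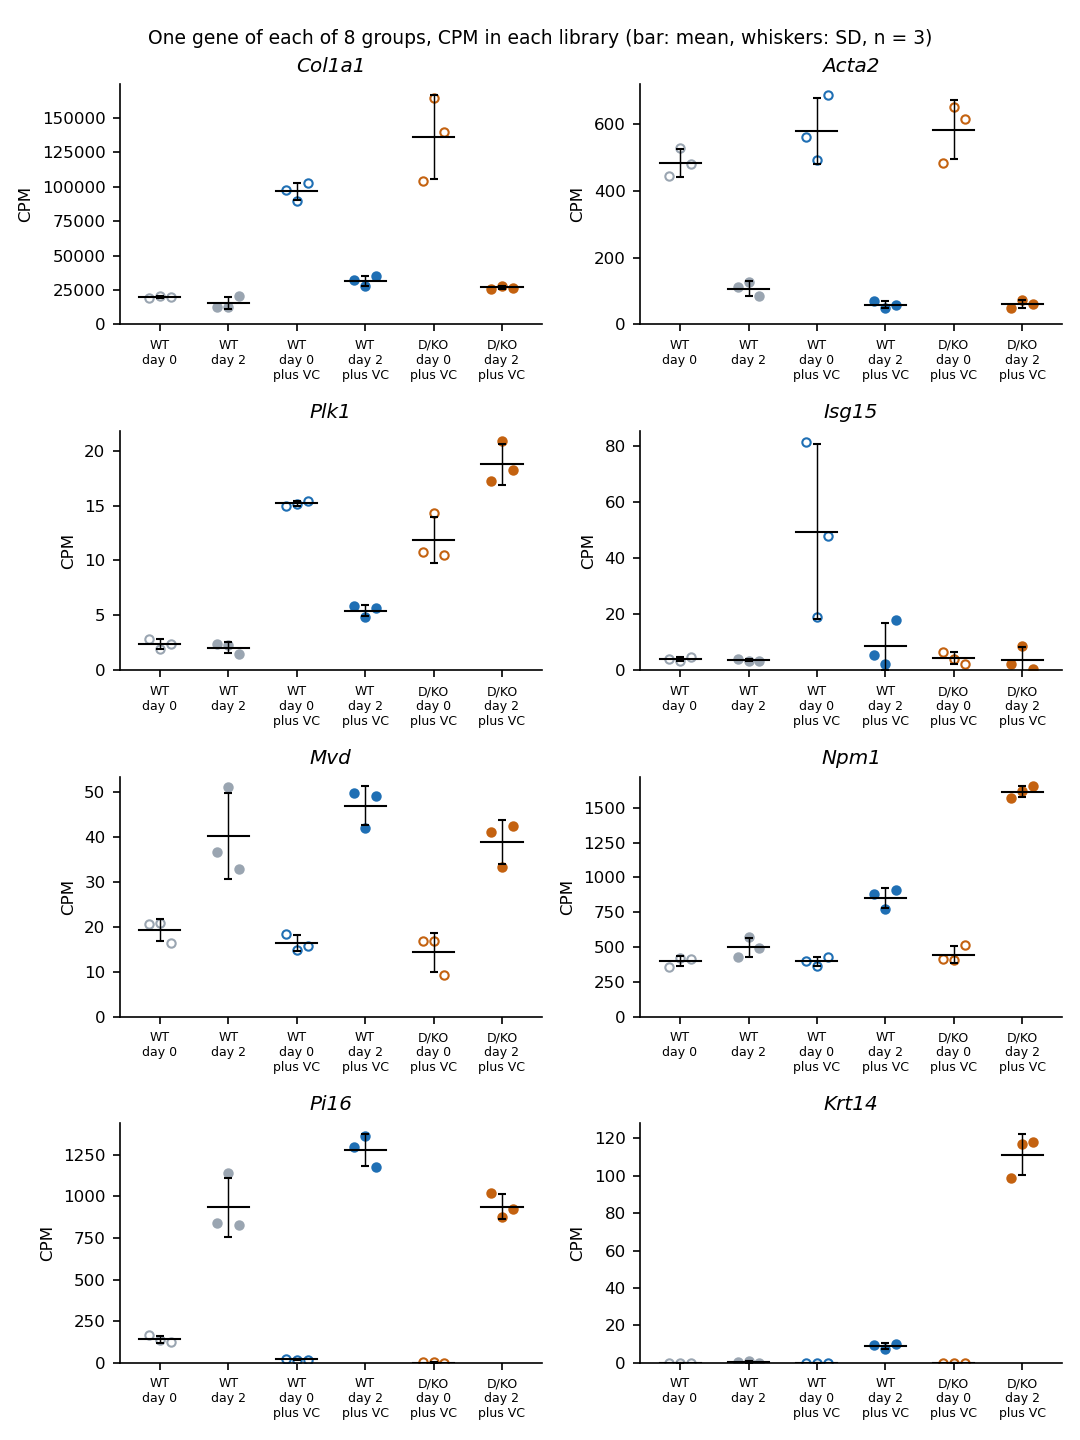
CPM of one gene from each of 8 groups in each library (open circles day 0, filled circles day 2; grey WT without VC, blue WT plus VC, orange D/KO plus VC; bar, mean; whiskers, SD; n = 3). Col1a1 and Plk1 start from a higher day 0 level plus VC than without, Isg15 varies widely among the day 0 libraries plus VC, and Acta2, Mvd and Pi16 move the same way in all 3 pairs of groups.

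The question whether the 2-day change differed with and without VC was tested directly in the WT line. Each change is measured from its own day 0 group, and those 2 groups differed in 4662 genes (edgeR, adjusted p under 0.05). An effect of VC on the day 0 level and one on the response to induction cannot be told apart here. In 403 genes (2.55%) the change was more positive with VC than without, and in 471 (2.97%) more negative. Mitosis genes were 15 of 30 among the latter and none among the former (50.0% against 2.97% of all genes). Collagen processing enzymes gave 10 of 20, matrix glycoproteins 8 of 26, S phase genes 7 of 35, collagen chains 5 of 22 and contractile genes 4 of 21 in the same direction. The S phase count was 3 or 4 without any 1 of replicates 2 and 3 of WT day 0, replicates 1 and 3 of WT day 0 plus VC and replicate 2 of WT day 2 plus VC. Fibroblast identity genes gave 4 of 24 more positive and 1 more negative.

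Among single genes, the largest positive differences began with a low day 0 level plus VC. Tenm4, a teneurin, was at 0.758, 1.35 and 1.39 CPM at day 0 plus VC and 24.95, 23.3 and 26.8 CPM at day 2 plus VC, and at means of 28.6 and 25.4 CPM without VC (difference 4.59 ± 0.29, adjusted p = 1.10e-13). Its low level was that of day 0 plus VC. Clec2g was at 0.104 and 1.61 CPM plus VC and at 0.404 and 0.232 CPM without (difference 4.65 ± 1.06, adjusted p = 0.00469). Acsbg1, an acyl-CoA synthetase gene that overlaps Idh3a on the opposite strand, had 2 counts at day 0 plus VC and reached 7.48 CPM, against 0.198 and 0.908 CPM without VC (adjusted p of the difference = 0.000954). Dmkn, Grhl3 and Sh2d6 had 0 counts at day 0 plus VC and 3.47, 1.80 and 0.570 CPM at day 2 plus VC. Without VC they were at 0.470 and 0.882 CPM, at 0.102 and 0.124 CPM, and at 2.77 and 2.79 CPM at day 0 and day 2. Their adjusted p-values of the difference were 0.000166, 0.00278 and 0.000325, and that of Grhl3 was 1.00 without replicate 3 of WT day 0. Of these WT groups, Grhl3 was above 0.124 CPM only at day 2 plus VC. The pooled filter could admit Grhl3 through that group, so it is given as a description.

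The largest negative differences were in genes raised at day 0 plus VC. Aqp1, a water channel, was at 423, 376 and 439.5 CPM at day 0 plus VC and 128, 109 and 106 CPM at day 2 plus VC, and rose from 80.5 to 144 CPM without VC (difference -2.69 ± 0.21, adjusted p = 1.54e-11). Matrilin 4, Matn4, was at 31.2 and 7.72 CPM plus VC and 5.54 and 9.21 CPM without (difference -2.75 ± 0.42, adjusted p = 3.72e-05). The heparin cofactor gene Serpind1 was at 6.48 and 0.968 CPM plus VC (difference -2.98 ± 0.70, adjusted p = 0.00608), Rflna at 4.86 and 0.434 CPM (-3.63 ± 0.76, adjusted p = 0.00186) and the Fcγ receptor gene Fcgr2b at 12.1 and 2.09 CPM (-2.88 ± 0.78, adjusted p = 0.0217). For Fcgr2b the adjusted p of the difference was 0.0726 to 0.346 without replicate 1 of WT day 0 or replicate 1 of WT day 2. The sixth, the pseudogene Ndufs5-ps inside Zbtb20, was at 1.01 and 0.177 CPM plus VC (-2.75 ± 0.63, adjusted p = 0.00464).

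The question whether the WT change plus VC differed from that of the D/KO line was tested in the same way. The WT change was more positive in 1109 genes (7.00%) and more negative in 1086 (6.86%). Mitosis genes gave 27 of 30 more negative in WT (90.0%), with medians of -0.97 in WT and 0.60 in D/KO. These medians have opposite signs. S phase genes gave 19 of 35 (medians -0.43 and 0.57), homologous recombination and Fanconi genes 12 of 36, nucleolar genes 19 of 30 and Myc metabolic targets 12 of 18 in the same direction. The matrix lists differed the other way, with a more positive change in WT in 14 of 22 collagen chains, 15 of 26 matrix glycoproteins and 8 of 19 proteases and inhibitors. Col1a1 fell to 31732 CPM in WT and from 135935 to 26809 CPM in D/KO (difference 0.74 ± 0.22, adjusted p = 0.0219), although the adjusted p of the difference was 0.0541 to 0.0822 without replicate 2 of D/KO day 0 plus VC, replicate 2 of WT day 0 plus VC or replicate 3 of WT day 2 plus VC. Plk1 fell in WT and went from 11.9 to 18.8 CPM in D/KO (difference -2.14 ± 0.25, adjusted p = 1.63e-07).

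The 2 lines also differed in cell type markers. Endothelial markers summed to 263 to 304 CPM in the D/KO day 0 libraries plus VC and to 4.85 to 7.08 CPM in WT. The defining markers Cdh5 and Pecam1 were at 103 and 72.9 CPM in D/KO and at 0.170 and 0.296 CPM in WT. In WT plus VC the sum reached 94.7 to 102 CPM at day 2 through Tek, an angiopoietin receptor, which rose from 6.13, 4.36 and 4.71 to 94.2, 97.5 and 101 CPM (log2 fold change 4.27 ± 0.12, adjusted p = 2.42e-24), while Kdr and Tie1 were at 0 counts. Macrophage markers went the other way, with sums of 14.4 to 15.3 CPM in D/KO at day 0 plus VC. The part of these cells in the differences between the lines was not tested.

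Among single genes, the largest positive differences of WT over D/KO included Plvap, an endothelial gene, which rose from 0.362 to 3.73 CPM in WT and fell from 89.8 to 25.8 CPM in D/KO (difference 5.15 ± 0.39, adjusted p = 1.08e-11). The others given here had a group at 0 counts. Rapgef4 was at 0 counts in WT at day 0 and 0.801 CPM at day 2, against 2.97 to 12.1 CPM in D/KO. Egfl6 fell from 5.09 to 1.17 CPM in WT, and Mirg was at 1.503 and 0.635 CPM, while both were at 0 counts at day 2 in D/KO from 1.21 and 0.987 CPM. Hhex was at 0 counts and then 0.134 CPM in WT, and its call was lost without any 1 of the 12 libraries plus VC other than replicate 2 of D/KO day 0, replicate 1 of D/KO day 2 and replicate 3 of WT day 2, with adjusted p-values up to 0.150. The adjusted p-values of the difference were 0.00685 for Rapgef4, 0.00768 for Egfl6, 0.00585 for Mirg and 0.0409 for Hhex. Rapgef4 and Hhex were under 1 CPM in both WT groups plus VC. They could reach the 1 CPM asked of a named gene only through D/KO, so they are given as a description.

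The largest negative differences were in genes that rose in D/KO cells. The lysosomal gene Laptm5 was at 4.65 and 5.40 CPM in WT and at 0.210 and 49.7 CPM in D/KO (difference -7.63 ± 0.62, adjusted p = 5.67e-11). Oas2, an interferon-stimulated gene, was at 2.98 and 4.91 CPM in WT and went from 1 count to 6.34 CPM in D/KO (adjusted p = 0.00134). Mybph, Nppc and Kcnip2 had 8 counts or fewer in each WT group plus VC, 0 counts at day 0 in D/KO, and means of 1.26, 2.15 and 1.16 CPM at day 2 in D/KO (adjusted p = 0.0141, 0.0194 and 0.0468). Of the groups compared, D/KO day 2 plus VC was the one where these 3 genes were above those levels, and the pooled filter could admit them through it, so they are given as a description. Mroh6 went from 7 counts to 0 in WT and from 10 to 63 counts in D/KO (adjusted p = 0.00813). The adjusted p of Nppc was 1.00 without replicate 1 of WT day 0 plus VC, as were those of Mybph and Mroh6 without replicate 2. The call of Kcnip2 was lost without any 1 of the 12 libraries plus VC other than replicate 3 of D/KO day 2 and replicates 2 and 3 of WT day 0, with adjusted p-values up to 1.00.

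**Figure D5:**
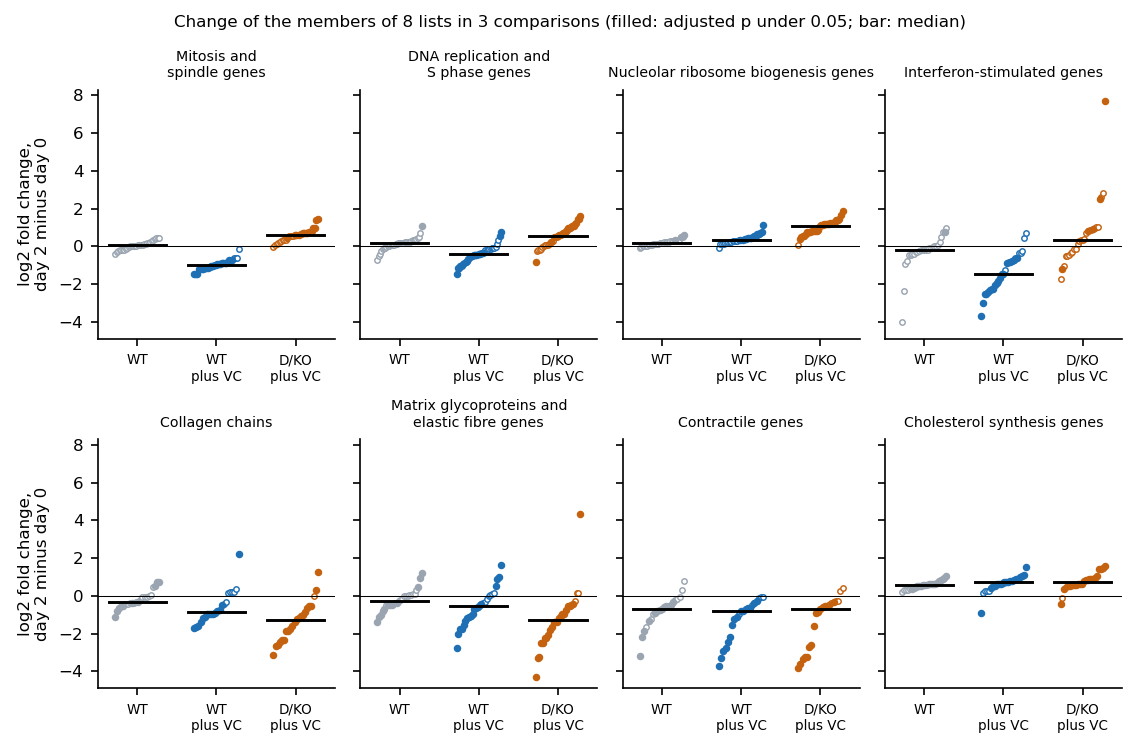
Log2 fold changes, day 2 minus day 0, of the tested members of 8 lists in WT without VC (grey), WT plus VC (blue) and D/KO plus VC (orange), with filled points at an adjusted p under 0.05 and a bar at the median. Mitosis medians are 0.051, -0.97 and 0.60, and contractile medians -0.71, -0.81 and -0.70.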

How the data were processed

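RNA of 36 samples in 12 groups was measured by poly(A) RNA-seq, of which 6 samples are described here and 12 more serve for comparison. The authors trimmed reads with Trim Galore, checked them with FastQC, aligned them with HISAT2 to GRCm39 and counted them per gene with featureCounts (Subread). The deposited values are raw counts, and tool versions, strandedness and the treatment of reads with several hits are not given in the sources used here. Reads of overlapping genes on opposite strands may therefore not be told apart. Each of the 36 columns matched 1 sample by its label.

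Genes were filtered with filterByExpr (minimum count 10, minimum total 15), which left 15832 of 56980. They were fitted in 1 model by edgeR 4.0.16 (R 4.3.3) with TMM scaling and quasi-likelihood tests, two-sided. Adjusted p-values are from the Benjamini-Hochberg procedure, and a gene was called at an adjusted p under 0.05. DESeq2 1.42.0 was an alternative. The tests were checked on simulated counts. Floors are 3 counts over a group, and 95% intervals cover counting error only. Named genes were the 12 largest rises and falls by fold, the 6 largest by CPM, up to 3 per direction and list (or all where few), and the 6 largest differences per direction in each difference test. Members and lists were chosen with earlier results of these data known, and genes said to be chosen after their values were seen fall outside that rule. Some genes that the rule names are not reported here. Promoter windows are from RefSeq (GRCm38.p6).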

Additional observations from a re-analysis of the deposited data

Results flagged for a closer look

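The change over the 2 days differed from that without VC in 874 genes and from that of D/KO cells plus VC in 2195 genes, each by the test of the difference itself (edgeR, Benjamini-Hochberg adjustment). The single genes named for such a difference are given here with their values. Between WT with and without VC, the log2 difference was 4.59 for Tenm4, 4.65 for Clec2g, 3.29 for Pi16, 2.32 for Cd34 and 0.88 for Klf4. It was -3.63 for Rflna, -2.98 for Serpind1, -2.88 for Fcgr2b, -2.75 for Ndufs5-ps, -2.75 for Matn4, -2.69 for Aqp1, -1.43 for Myl9, -1.17 for Phgdh and -1.12 for Acta2. Where a group held 3 counts or fewer the adjusted p of the difference stands for it, 0.000954 for Acsbg1, 0.000166 for Dmkn, 0.00278 for Grhl3 and 0.000325 for Sh2d6. Grhl3 was near 0 in the WT groups compared other than day 2 plus VC and is a description only.

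Between WT and D/KO plus VC, the log2 difference was 5.15 for Plvap, 0.74 for Col1a1, -7.63 for Laptm5, -2.14 for Plk1, -1.15 for Klf4 and -1.04 for Myc. With 3 counts or fewer in a group, the adjusted p of the difference was 0.00585 for Mirg, 0.00768 for Egfl6, 0.00685 for Rapgef4, 0.0409 for Hhex, 0.00134 for Oas2, 0.00813 for Mroh6, 0.0141 for Mybph, 0.0194 for Nppc and 0.0468 for Kcnip2. Mybph, Nppc and Kcnip2 were near 0 in the groups compared other than D/KO day 2 plus VC, through which the filter could admit them, and are a description only. Rapgef4 and Hhex were under 1 CPM in both WT groups plus VC and are also a description only. Genotype, sex, age and cell line cannot be told apart in this comparison.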

How the results depend on the processing

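The numbers of called genes stayed within 1.5 times of the reported ones under other size factors, DESeq2, no filter on low counts, fewer libraries in the fit and each left-out library, and that of the WT change also with the other baseline. The prior count and centring do not enter the test and could not move these counts. The calls in the WT change, the difference by VC and the difference by genotype numbered 4380, 868 and 2183 with RLE size factors, 4496, 1174 and 2512 with DESeq2, and 4035, 1034 and 2085 without the filter. Requiring an absolute log2 value of at least 1 left 1544 (759 higher, 785 lower), 376 (195 and 181) and 961 (466 and 495). With 1 library left out they were 3635 to 3803 (1847 to 1948 higher, 1767 to 1910 lower) for the WT change, 612 to 953 (291 to 465 higher, 317 to 488 lower) for the difference by VC and 1723 to 2134 (888 to 1087 higher, 834 to 1104 lower) for that by genotype. With DESeq2 the WT change gave 2148 higher and 2348 lower. With the day 0 cells that had no VC as the baseline, 5913 genes were called, and 53 of the 228 named genes tried had the opposite sign, with log2 values of Apex2 0.15, Aqp1 0.51, Axin2 3.12, Brip1 0.61, Bst2 0.66, C1qtnf6 0.33, C2 0.91, Cldn1 -1.10, Col1a1 0.68, Col1a2 0.73, Col6a2 0.51, Col7a1 0.22, Dnmt1 0.22, Exo1 0.72, Fcgr2b 2.40, Fosl2 0.31, Gata3 0.64, Grem1 -0.035, Ifit3 0.49, Ifit3b 0.41, Il33 0.57, Isg15 1.06, Kdm3b -0.081, Klf4 -0.21, Krt19 -1.09, Lgr6 -0.018, Lum 0.88, Matn4 0.48, Mcm5 0.99, Ndrg1 -0.60, Nkd2 1.35, Nog -0.10, Nr4a1 -0.21, P4ha3 0.051, Parp2 -0.34, Pdgfra 0.10, Pdgfrb 0.054, Plk1 1.17, Prc1 0.60, Rpa2 0.29, Rrm1 0.80, Serpind1 0.24, Serpinh1 0.0074, Sh2d6 -2.27, Snai2 -0.57, Sparc 0.15, Spp1 -0.85, Tenm4 -0.19, Thbs2 0.25, Tk1 0.66, Ube2c 0.45, Uhrf1 0.43 and Vldlr -2.26. In these genes the reported direction is that from the day 0 level plus VC. Of 37 list medians, 29 moved beyond their spread and 16 changed sign with that baseline, including mitosis genes (0.77), S phase genes (0.66), interferon-stimulated genes (0.49), collagen chains (0.30) and matrix glycoproteins (0.14). A further 28 named genes lost their call against it, among them Col12a1 (-0.14), Mmp3 (-0.37) and Alpl (adjusted p = 0.107). The counts of called list members moved beyond 1.5 times in 42 cases with that baseline and stayed in 32. They moved in 98 and stayed in 124 with an absolute log2 value of at least 1. Without the filter 37 moved and 185 stayed, and with 1 library left out 273 moved and 1947 stayed. Of the named genes and differences, 14 lost their call without the filter, 13 with only the 6 libraries in the fit, 4 with the 18 WT libraries, 3 with RLE size factors (Kdm3b, Parp2 and Rad51d), 1 with DESeq2 (Kdm3b) and 3 in the fits of 12 libraries (Ndufs5-ps, Nppc and Kcnip2, adjusted p = 0.0584, 0.0594 and 0.0894). The difference by genotype of Sox2 passed with DESeq2, without the filter and with 12 libraries (adjusted p = 0.0418, 0.000217 and 0.0240). The fall of Mki67 passed without the filter, with the 6 libraries and with the 18 WT libraries (adjusted p = 0.000317, 0.0220 and 0.0150), and against the baseline without VC Mki67 was higher at day 2 (1.38). The causes were not tested. No paired analysis was possible because the labels pair no samples between groups. The replicate numbers used here follow the order of the sample titles within each group. With 3 libraries per group, changes of low genes are the least certain.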

Other observations

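Of 19 TET and Jumonji dioxygenase genes, whose products use ascorbic acid as a cofactor, 1 rose and none fell at an adjusted p under 0.05 (edgeR; 5.26% up and 0.00% down, against 13.8% and 13.7% of all genes, median 0.076). That gene was Kdm3b, from 55.4 to 69.5 CPM, but the adjusted p was 0.0589 to 0.203 without day 0 replicate 1, day 0 replicate 3, day 2 replicate 1, day 2 replicate 2 or day 2 replicate 3. Of 20 DNA methylation and Polycomb genes, 3 rose (15%) and 4 fell (20%), against 13.8% and 13.7% of all genes (median -0.12). Uhrf1, which guides maintenance methylation at replication, fell from 14.4, 14.6 and 13.5 to 6.01, 5.94 and 5.60 CPM (log2 fold change -1.28 ± 0.17, adjusted p = 2.22e-07), against means of 4.33 and 4.20 CPM without VC. The Polycomb genes Ezh1 (log2 fold change 1.01 ± 0.11, adjusted p = 8.20e-09) and Cbx2 (log2 fold change 0.93 ± 0.21, adjusted p = 0.000866) rose. Ring1 was called higher (0.43), and Dnmt1 (-0.42) and Bmi1 (-0.28) were called lower. For Ring1 the adjusted p was 0.0509 to 0.115 without day 0 replicate 2, day 0 replicate 3, day 2 replicate 1 or day 2 replicate 2, for Dnmt1 the adjusted p was 0.0572 to 0.112 without day 0 replicate 2 or day 2 replicate 1, and for Bmi1 the adjusted p was 0.0682 without day 0 replicate 2 or day 2 replicate 1.

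Complement genes went both ways, with 5 rises and 4 falls among 18 tested (27.8% up and 22.2% down, against 13.8% and 13.7% of all genes, median -0.17). The decay-accelerating factor gene Cd55 rose from 44.4, 40.1 and 35.6 to 199, 209 and 172 CPM (log2 fold change 2.27 ± 0.13, adjusted p = 3.66e-16), the C1 inhibitor gene Serping1 from 684 to 1202 CPM (log2 fold change 0.81 ± 0.16, adjusted p = 0.000111) and C4b from 14.0 to 38.7 CPM (log2 fold change 1.47 ± 0.23, adjusted p = 3.68e-06). C4b has a near-identical copy, C4a, and the split of reads between them is uncertain. Clu was called higher (0.47), although the adjusted p was 0.0507 to 0.108 without day 0 replicate 3 or day 2 replicate 2. C2 fell from 27.2, 21.8 and 31.5 to 8.22, 7.81 and 8.09 CPM (log2 fold change -1.74 ± 0.25, adjusted p = 1.36e-06) and the lectin pathway protease gene Masp1 from 523 to 245 CPM (log2 fold change -1.09 ± 0.13, adjusted p = 5.02e-08), with Cd59a (-0.89) and C1qtnf6 (-0.87).

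Of 15 AP-1 and immediate early factor genes tested, 3 rose and 1 fell (20% up and 6.67% down, against 13.8% and 13.7% of all genes, median 0.42). The nuclear receptor gene Nr4a1 rose from 69.8, 33.2 and 21.7 to 130.0, 110.2 and 77.6 CPM (log2 fold change 1.35 ± 0.30, adjusted p = 0.000613) and Egr2 from 46.4, 33.8 and 23.5 to 77.2, 93.0 and 60.6 CPM (log2 fold change 1.15 ± 0.22, adjusted p = 0.000124). Egr1 was called higher (0.56) and Fosl2 lower (-0.35). For Egr1 the adjusted p was 0.0606 to 0.161 without day 0 replicate 3, day 2 replicate 1 or day 2 replicate 2, and for Fosl2 the adjusted p was 0.0653 to 0.104 without day 0 replicate 2, day 0 replicate 3 or day 2 replicate 2. Of 32 Hox genes tested, 6 rose and 2 fell (18.8% up and 6.25% down, against 13.8% and 13.7% of all genes, median 0.16), and the rises numbered 3 without any 1 of day 0 replicates 1, 2 and 3 or of day 2 replicates 1 and 2. Hoxb9 fell from 62.1, 62.9 and 56.6 to 27.8, 29.97 and 29.0 CPM (log2 fold change -1.07 ± 0.13, adjusted p = 7.47e-08) and Hoxb13 from 214, 178 and 190.2 to 140.2, 132 and 122 CPM (log2 fold change -0.56 ± 0.12, adjusted p = 0.000275). Hoxc11 rose from 8.40 to 14.4 CPM (log2 fold change 0.77 ± 0.19, adjusted p = 0.00176).

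Among the remaining marker lists, keratinocyte markers summed to 4.45 to 7.08 CPM at day 0 plus VC and 17.6 to 18.9 CPM at day 2 plus VC, with Krt15 and Dsg3 at 0 counts in both groups. Chondrocyte markers summed to 29.3 to 37.0 and then 59.0 to 63.4 CPM, with Acan and Col9a1 at 0 counts. Melanocyte markers summed to 9.36 to 14.96 CPM over both groups, carried by Mitf and Pmel, and Schwann cell markers to 0.948 to 2.08 CPM. Adipocyte markers summed to 0.758 to 1.29 and then 0 to 0.426 CPM, all of it Fabp4, which was called lower (log2 fold change -1.86 ± 0.54, adjusted p = 0.00802), although the adjusted p was 0.0611 to 0.0742 without day 0 replicate 2 or day 2 replicate 2. Adiponectin, Plin1, Lep and Cidec were at 0 counts in all 6 libraries.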
